A study of Mus musculus with 8 samples.

Results

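Cytokines of the TNF, IL-6, IL-10 and IL-12 families, with IL-15, were followed in osteoclast precursor (OCP) cells treated with PRDX1, RANKL or both. The members were the genes of the deposited table whose symbol was Tnf, Il6, Il10, Il12b, Il23a, Il27, Il15, Osm or Lif, and all 9 were found among its 25124 genes. They were taken by symbol and not by a threshold on their values. RNA from 8 cultures was sequenced, 2 in each of 4 groups, to ask how PRDX1 alters gene expression in the presence and absence of RANKL. All cultures received 30 ng/mL M-CSF, the survival factor of these cells. The group no PRDX1 + no RANKL received nothing else, PRDX1 + no RANKL received 200 nM recombinant PRDX1, no PRDX1 + RANKL received 100 ng/mL RANKL, and PRDX1 + RANKL received both, each for 48 h. The first 3 groups are called M-CSF alone, PRDX1 alone and RANKL alone, although M-CSF was in every culture. RANKL is the cytokine that drives macrophage precursors toward osteoclasts, and PRDX1 is a peroxidase that, outside the cell, has been described as a ligand of the receptor TLR4. The recombinant PRDX1 carried a His tag, was made in bacteria and was treated to remove endotoxin. The precursors came from bone marrow of mice aged 6 to 8 weeks by the labels. Before treatment the precursors had M-CSF at 5 ng/mL over 16 h and then at 30 ng/mL over 3 days. The labels give C57BL/6 as the strain, whereas the cell culture methods of the study name male ICR mice aged 6 weeks.

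TNF is a trimeric cytokine that macrophages shed from their surface, and it is known to promote osteoclast formation together with RANKL. IL-6, oncostatin M (Osm), LIF and IL-27 belong to the IL-6 family and share the signalling receptor chain encoded by Il6st. The IL-12 family is built from pairs of subunits. The product of Il12b pairs with that of Il12a to form IL-12 or with that of Il23a to form IL-23, and the product of Il27 pairs with that of Ebi3 to form IL-27. IL-10 dampens macrophage activation, and IL-15 supports natural killer and memory T cells and is presented by the receptor chain encoded by Il15ra.

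Levels are given in FPKM, which are reads scaled to transcript length and to the size of the library, and can therefore be compared between genes. Between 24542578 and 41712973 reads lay on genes per library, and FPKM multiplied by transcript length came to whole reads, within 0.2 reads, for 100% of the 8241 to 11027 genes checked per library. More genes had 2 reads (630 to 688 per library) than 1 read (350 to 427), so reads at low levels were not independent of each other, as when both mates of a pair are counted. Intervals are therefore also given with 2 reads counted as 1 pair, a choice made after seeing the data. Replicates are separate samples by their labels only. Nothing states that they came from separate animals, so the p-values measure the spread between these samples, which may be technical. The 6 macrophage markers examined were all present, with a summed level of at least 1265 FPKM in every library. Differences were tested by limma on log2(FPKM + 1) with Benjamini-Hochberg adjustment, for the 11700 genes with a mean of at least 0.5 FPKM. A gene was called changed at an adjusted p under 0.05 and a change of at least 1.5-fold on that scale, which understates the change of genes with low FPKM. With 2 cultures against 2, permutation of the cultures of a single gene cannot reach p = 0.05. Of the 9 members, 5 passed the filter, namely Tnf, Il15, Osm, Il27 and Il10. Lif, Il12b, Il6 and Il23a did not, and they are described by their reads.

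The start regions of 3 members are shown first, because Tnf and Lif had the largest differences with PRDX1 among the members on the log2(FPKM + 1) scale and these ran in opposite directions in the presence of RANKL, and because Il6 stayed near zero. Each run is the 250 bases before the transcript start, 5′ to 3′ on the strand of the gene, from RefSeq on GRCm38.p6. The positions are chr17:35202008-35202257 on the minus strand for Tnf, chr11:4257318-4257567 on the plus strand for Lif, and chr5:30012864-30013113 on the plus strand for Il6. Capitals mark matches to 3 motifs searched on both strands, the κB consensus bound by NF-κB, the AP-1 motif TGANTCA and the TATA box TATAAA. RefSeq start regions were found for 4 of the 9 members, the other being Il12b, which held none of the 3 motifs.
Tnf: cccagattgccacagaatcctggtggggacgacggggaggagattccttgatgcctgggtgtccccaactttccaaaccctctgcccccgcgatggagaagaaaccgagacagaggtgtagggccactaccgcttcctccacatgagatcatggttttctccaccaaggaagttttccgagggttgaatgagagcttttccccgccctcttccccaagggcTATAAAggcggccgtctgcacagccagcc
Lif: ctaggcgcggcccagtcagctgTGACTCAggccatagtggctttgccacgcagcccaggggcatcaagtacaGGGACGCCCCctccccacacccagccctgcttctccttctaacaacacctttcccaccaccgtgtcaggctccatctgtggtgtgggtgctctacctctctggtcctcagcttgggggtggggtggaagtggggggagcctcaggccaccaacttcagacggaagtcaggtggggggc
Il6: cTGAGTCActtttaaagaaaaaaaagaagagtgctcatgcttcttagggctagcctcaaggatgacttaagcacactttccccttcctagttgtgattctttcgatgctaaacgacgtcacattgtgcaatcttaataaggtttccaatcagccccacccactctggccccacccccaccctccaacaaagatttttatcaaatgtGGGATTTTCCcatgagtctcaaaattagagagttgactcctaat

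The window of Tnf held TATAAA at -29 to -24 and no match to the κB consensus or AP-1 motif as spelled here. The window of Lif held the AP-1 match TGACTCA at -228 to -222 and the κB match GGGACGCCCC at -178 to -169. The window of Il6 held the AP-1 match TGAGTCA at -249 to -243 and the κB match GGGATTTTCC at -44 to -35. Of 32851 windows of the same kind, which run from 250 bases before to 50 after a start, 8.46% held the κB consensus, 7.81% the AP-1 motif and 13.6% TATAAA. The matches describe the letters only, and binding was not measured here.

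Tnf was the most abundant member in each group. It was transcribed from the minus strand at chr17:35199367-35202007 (mm10, NM_001278601), next to Lta, whose level was at most 0.252 FPKM in any library. Its level was 22.6 and 22.1 FPKM in the libraries with M-CSF alone and 41.7 and 38.3 FPKM with PRDX1 alone. With RANKL alone it was 12.9 and 13.6 FPKM, and with PRDX1 + RANKL 33.1 and 33.9 FPKM. The 4 libraries with PRDX1 all lay above the 4 without it, the libraries with RANKL alone were the lowest, and no 2 groups overlapped. These levels rested on 562 to 2442 reads per library. In cultures sequenced as bulk, as here, a change in the number of cells of a type and a change in RNA per cell cannot be told apart.

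PRDX1 raised Tnf both without and with RANKL. Without RANKL, the mean was 40.0 ± 2.43 FPKM (SD, n = 2) with PRDX1 and 22.3 ± 0.385 FPKM without it, a ratio of 1.79 and a log2 fold change of 0.81 ± 0.06 (SE, limma adjusted p = 8.98e-06). With RANKL, the mean was 33.5 ± 0.593 FPKM with PRDX1 and 13.3 ± 0.540 FPKM without it, a ratio of 2.53 and a log2 fold change of 1.27 ± 0.06 (limma adjusted p = 1.89e-07). The increase by PRDX1 was larger with RANKL by 0.46 ± 0.09 on the log2 scale (limma interaction, adjusted p = 0.00364), which was under 1.5-fold and so was not counted as a call.

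RANKL had the opposite direction. Without PRDX1, RANKL lowered Tnf 1.69-fold, with a log2 fold change of -0.71 ± 0.06 (limma adjusted p = 4.0e-06). In the presence of PRDX1 the difference between cultures with and without RANKL was -0.25 ± 0.06 (limma adjusted p = 0.00855), which did not reach 1.5-fold. Thus the level with PRDX1 + RANKL lay above that with M-CSF alone in every library.

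**Figure D1:**
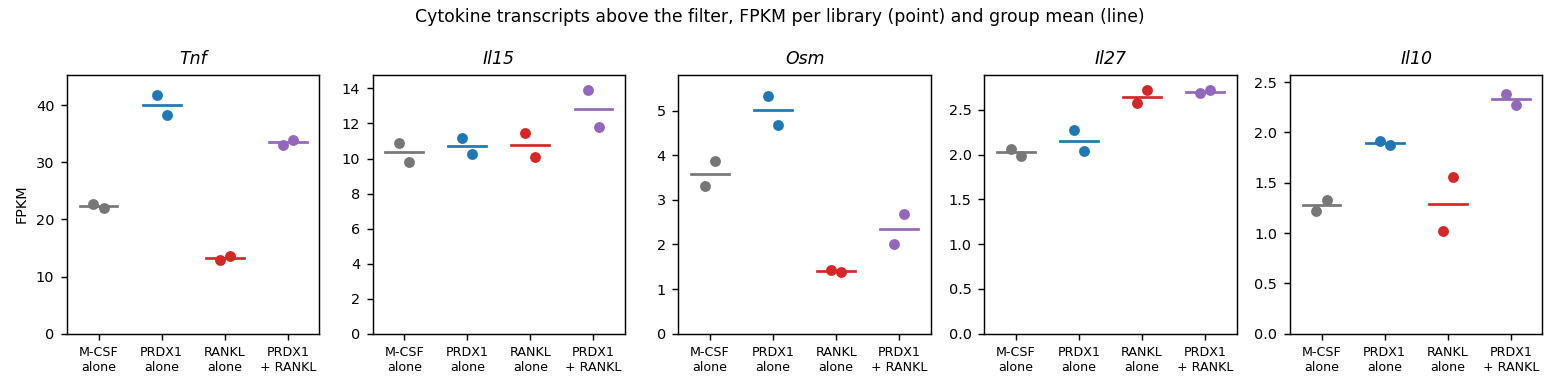
FPKM of the 5 members above the filter, with 1 panel per gene, the 4 groups on the horizontal axis, 1 point per library and a line at the mean of the 2 libraries; each vertical axis starts at 0. Tnf lay between 33.1 and 41.7 FPKM in the libraries with PRDX1 and between 12.9 and 22.6 FPKM in those without, Osm was lowest with RANKL alone, and Il15 spanned 9.80 to 13.9 FPKM over all 8 libraries.

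Tnf made up the largest share of the summed level of the members. It held 56.2% and 56.3% of the summed FPKM of the 9 members with M-CSF alone, 66.6% in both libraries with PRDX1 alone, 41.6% and 43.8% with RANKL alone, and 60.5% and 62.7% with PRDX1 + RANKL. The sum of the other 8 members was 17.1 to 18.1 FPKM in the 4 libraries without PRDX1 and 19.2 to 21.6 FPKM in the 4 with it, without overlap. Genes whose log2(FPKM + 1) followed that of Tnf most closely over the 8 libraries, among 11700 genes, were Clec7a (Pearson r = 0.997), which encodes the β-glucan receptor dectin-1, Xdh (r = 0.995), which encodes xanthine dehydrogenase, and Sgk1 (r = 0.995), which encodes a serum- and glucocorticoid-regulated kinase. These correlations are descriptions over 8 libraries that share the same 4 treatments.

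Markers of other cell types moved with PRDX1 as well. The summed level of 7 neutrophil markers was 8.14 to 12.2 FPKM with M-CSF alone, 38.6 to 43.1 FPKM with PRDX1 alone, 16.1 to 16.4 FPKM with RANKL alone and 33.8 to 37.3 FPKM with PRDX1 + RANKL. S100a8 and S100a9 made up most of these sums. With PRDX1 alone they were at 17.3 and 17.1 FPKM and at 21.5 and 17.5 FPKM, whereas Ly6g had at most 8 reads in any library. Of the 5 neutrophil markers tested, 4 rose with PRDX1 without RANKL and 3 with RANKL, and 1, S100a8, rose with RANKL without PRDX1. Over all genes, 5.79%, 10.2%, 21.8% and 8.50% were called for PRDX1 without and with RANKL and for RANKL without and with PRDX1, which stand beside each count of markers given here. The 5 stromal markers summed to 7.52 to 10.3, 16.3 to 16.4, 7.37 to 9.26 and 14.5 to 18.5 FPKM in the same order, and 2 of the 3 tested rose with PRDX1 in both settings. The 5 markers of mature dendritic cells summed to 7.58 to 8.49, 8.63 to 8.67, 3.80 to 4.31 and 8.72 to 8.89 FPKM, and 2 of the 3 tested, Fscn1 and Ccr7, rose with PRDX1 in both settings. Cd83, the other of the 3, was not called with PRDX1 in either. It was lower with PRDX1 alone, at 4.53 and 4.26 FPKM, than with M-CSF alone, at 6.50 and 7.02 FPKM. With PRDX1 + RANKL it was higher, at 1.72 and 1.53 FPKM, than with RANKL alone, at 0.876 and 0.949 FPKM. Fscn1 and Ccr7 also rose with RANKL without PRDX1, while Cd83 fell, and with RANKL in the presence of PRDX1 Ccr7 rose and Cd83 fell. The 6 macrophage markers summed to 2012 to 2035, 2290 to 2362, 1265 to 1384 and 1701 to 1743 FPKM, in the same order. With RANKL 4 of the 6 fell without PRDX1 and 3 with PRDX1, and 3 rose with PRDX1 in the presence of RANKL. The 4 B cell markers summed to 0.577 to 0.960, 1.57 to 2.08, 0.617 to 0.913 and 1.36 to 1.58 FPKM in the same order, and none of them passed the filter to be tested. The 6 T cell markers, with Cd3e listed at 0, summed to 0.729 to 1.02, 1.15 to 1.16, 0.907 to 1.12 and 1.57 to 1.90 FPKM, and the 1 tested was not called. For both of these low sums, every library with PRDX1 lay above every library without it. The part of these cell types in the differences of Tnf, Osm, Lif and the other genes was not tested. The 5 natural killer cell markers summed to at most 0.303 FPKM with Ncr1, Gzma and Prf1 listed at 0. The 5 markers of mast cells and basophils had at most 3 reads each in any library.

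Osm encodes oncostatin M, an IL-6 family cytokine made by macrophages that acts on osteoblasts. It lay at chr11:4236785-4241026 on the plus strand (NM_001013365). Its level was 3.30 and 3.86 FPKM with M-CSF alone and 5.33 and 4.68 FPKM with PRDX1 alone. It was 1.43 and 1.38 FPKM with RANKL alone and 2.004 and 2.67 FPKM with PRDX1 + RANKL. The 4 libraries with RANKL all lay below the 4 without it, and within each RANKL condition those with PRDX1 were the higher ones.

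RANKL lowered Osm in both settings. Without PRDX1 the mean fell from 3.58 ± 0.397 to 1.40 ± 0.0297 FPKM, which was 2.55-fold lower, with a log2 fold change of -0.93 ± 0.12 (limma adjusted p = 6.74e-05). With PRDX1 it fell from 5.00 ± 0.465 to 2.34 ± 0.472 FPKM, 2.14-fold lower, with a log2 fold change of -0.85 ± 0.12 (limma adjusted p = 3.07e-04). The difference with PRDX1 was 0.39 ± 0.12 in the absence of RANKL (adjusted p = 0.0301) and 0.47 ± 0.12 in its presence (adjusted p = 0.00914), and neither reached 1.5-fold on the log2(FPKM + 1) scale. The ratio of mean FPKM was 1.66 with RANKL, and the gene passed both thresholds in that comparison when the pseudocount was 0.1, with a log2 difference of 0.68. The interaction of PRDX1 and RANKL was 0.08 ± 0.16 (adjusted p = 0.797). The genes whose pattern was most like that of Osm over the 8 libraries were Fgl2 (r = 0.990), which encodes fibrinogen-like protein, Pcbp4 (r = 0.989), which encodes a poly(C)-binding protein, and Rnf2 (r = 0.988), which encodes a ubiquitin ligase of the Polycomb group.

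Lif encodes leukemia inhibitory factor, another ligand of the IL-6 family, and is the neighbour of Osm. It lay at chr11:4257568-4272514 on the plus strand (NM_008501), 16542 bases beyond the end of Osm with 0 genes of the table between them. Its level was 0.034 and 0.048 FPKM with M-CSF alone, from 4 and 8 reads, and 0.080 and 0.106 FPKM with PRDX1 alone, from 10 and 15 reads. With RANKL alone it was 1.47 and 1.31 FPKM, from 161 and 182 reads. With PRDX1 + RANKL it was 0.243 and 0.327 FPKM, from 45 and 55 reads. The libraries with RANKL alone stood far above all others, and no 2 groups overlapped. Osm, in contrast, was lowest with RANKL alone.

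RANKL alone was thus 33.0-fold higher in Lif reads per library read than M-CSF alone, with a 95% interval of 18.6 to 64.5, or 14.9 to 91.2 with 2 reads counted as 1 pair. Under RANKL, PRDX1 + RANKL was 4.89-fold lower in mean FPKM than RANKL alone, and the exact 95% interval from the reads was 3.90 to 6.17, or 3.55 to 6.84 with 2 reads as 1 pair. These intervals cover counting error only. The mean of Lif over all libraries, 0.453 FPKM, lay under the filter, so it was tested in the fit with no filter on low values, which held 17377 genes. There Lif rose with RANKL without PRDX1, by 1.20 on the log2(FPKM + 1) scale (limma adjusted p = 1.08e-05), a comparison in which 15.0% of the genes were called. With RANKL present it fell with PRDX1, by 0.90 ± 0.05 (limma adjusted p = 9.95e-05), where 6.97% of the genes were called. The difference between both PRDX1 effects was -0.97 ± 0.07 (limma interaction, adjusted p = 7.10e-04), where 5.66% of the genes were called. The difference with RANKL in the presence of PRDX1 was 0.23 ± 0.05 (adjusted p = 0.0181, 5.59% of the genes called), under 1.5-fold on this scale, although the mean FPKM was 3.06-fold higher. Without RANKL, PRDX1 gave a difference of 0.07 ± 0.05 (adjusted p = 0.424, 3.84% of the genes called).

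Because a pseudocount of 1 hides most of a change at such levels, the recovered reads were also compared with limma-voom, for the 12880 genes with at least 10 reads per library on average, a setting chosen after seeing the data. Lif and Il12b passed that filter through the groups in which they were high, so their values in it are given as a description and add no support to the calls above. The log2 fold change of Lif was 4.98 ± 0.51 with RANKL without PRDX1, -2.29 ± 0.26 with PRDX1 in the presence of RANKL, 1.57 ± 0.45 with RANKL in the presence of PRDX1 and 1.11 ± 0.63 with PRDX1 without RANKL. Of the genes in this fit, 28.0%, 14.6%, 12.3% and 9.18% were called in these comparisons and 11.1% in the interaction.

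**Figure D2:**
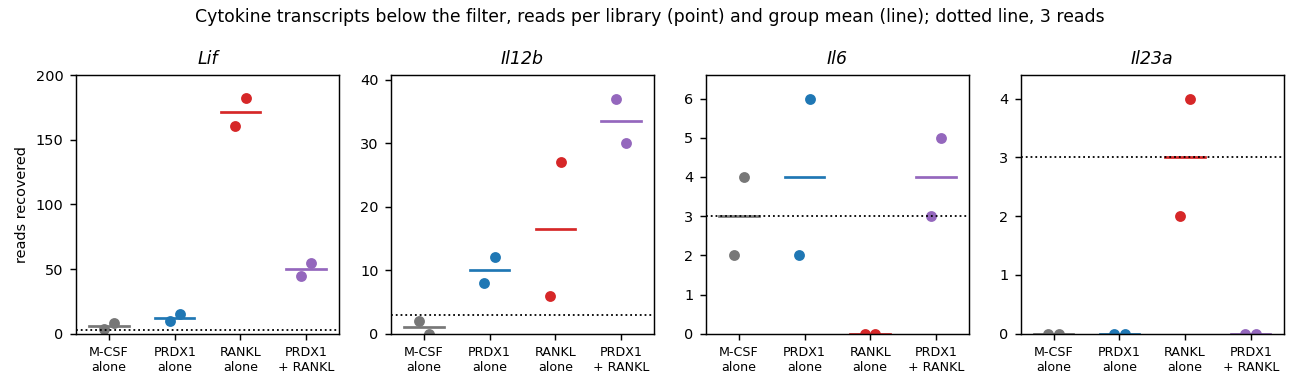
Reads recovered per library for the 4 members below the filter, with 1 panel per gene, the 4 groups on the horizontal axis, 1 point per library, a line at the group mean and a dotted line at 3 reads; reads are not scaled to library size. Lif reached 161 and 182 reads with RANKL alone and 45 and 55 with PRDX1 + RANKL, whereas Il6 had at most 6 reads and Il23a at most 4 reads in any library.

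Il6, the founding member of its family and an acute-phase cytokine, stayed near zero in every group. Its gene lay at chr5:30013114-30019975 on the plus strand (NM_001314054). The libraries held 2 and 4 reads with M-CSF alone, 2 and 6 with PRDX1 alone, 0 and 0 with RANKL alone, and 3 and 5 with PRDX1 + RANKL. The highest level was 0.158 FPKM, in a library with PRDX1 alone. The groups with and without PRDX1 overlapped in the absence of RANKL, and with RANKL alone the 0 reads allow up to 0.102 and 0.0807 FPKM, counted as 3 reads per library. In the presence of RANKL the groups did not overlap, and 8 reads with PRDX1 against 0 without it gave an exact 95% interval of the ratio that began at 1.20, but at 0.463 with 2 reads counted as 1 pair. For RANKL without PRDX1, 0 reads against 6 gave an interval of the ratio that ended at 0.981, but at 2.79 with 2 reads as 1 pair. Both differences thus lay within counting error under the wider intervals. These intervals cover counting error only and not the spread between cultures. In the fit with no filter its adjusted p was 0.116 or more in each comparison.

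The IL-12 family was represented by subunits of very different levels. Il12b, at chr11:44400063-44414677 on the plus strand (NM_001303244), encodes the subunit shared by IL-12 and IL-23. It held 2 and 0 reads with M-CSF alone, 8 and 12 with PRDX1 alone, 6 and 27 with RANKL alone, and 37 and 30 with PRDX1 + RANKL. The highest level was 0.321 FPKM, with PRDX1 + RANKL, and the untreated group lay below all others, while the other groups overlapped in part. Counting the reads of each group against its library totals, the ratio to M-CSF alone was 10.7 (95% interval 2.60 to 94.5) with PRDX1 and 19.1 (4.87 to 164) with RANKL. With 2 reads counted as 1 pair, the lower bounds were 1.52 and 2.97. The second ratio rested largely on 1 library and was 7.85 without RANKL alone replicate 2, and without M-CSF alone replicate 2, the library with 0 reads, both ratios were lower, at 4.44 and 7.90. PRDX1 in the presence of RANKL gave a ratio of 1.43 (0.926 to 2.23), which was 3.46 without RANKL alone replicate 2 and 0.973 without replicate 1, and these groups overlapped. RANKL in the presence of PRDX1 gave 2.53 (1.52 to 4.41). In the fit with no filter no comparison of Il12b was called, and the smallest adjusted p was 0.0621, for RANKL without PRDX1. In limma-voom on the recovered reads, with the limit of its filter given for Lif, the log2 difference of Il12b was 3.29 ± 0.90 with PRDX1 without RANKL and 3.87 ± 0.88 with RANKL without PRDX1, both against a group with 2 reads in all. It was 0.75 with PRDX1 and 1.32 with RANKL when the other was present.

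Il23a, at chr10:128296140-128298084 on the minus strand (NM_031252), encodes the subunit particular to IL-23. It had reads only in the libraries with RANKL alone, 2 and 4, and 0 in the other 6 libraries. The level of 0.054 and 0.086 FPKM in these libraries was close to the 0.0813 and 0.0642 FPKM that 3 reads represent there. In the fit with no filter its difference with RANKL without PRDX1 was 0.10 ± 0.02 (limma adjusted p = 0.00898), far under 1.5-fold. Il23a entered that fit only through the libraries with RANKL alone, and the other 6, all at 0, have no spread. This p-value therefore adds no support. In reads, 6 against 0 gave an exact 95% interval of the ratio that began at 1.36, but at 0.477 with 2 reads counted as 1 pair. For PRDX1 with RANKL, 0 against 6 gave an interval that ended at 0.596, but at 1.70 with 2 reads as 1 pair. Il12a, which encodes the other partner of Il12b, was at most 0.091 FPKM in any library. Thus the transcripts of both partner subunits stayed near zero where the reads of Il12b were highest.

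Il27, at chr7:126589009-126595022 on the minus strand (NM_145636), encodes the cytokine-like subunit of IL-27. Its level was 2.06 and 1.99 FPKM with M-CSF alone, 2.27 and 2.04 FPKM with PRDX1 alone, 2.58 and 2.72 FPKM with RANKL alone, and 2.69 and 2.72 FPKM with PRDX1 + RANKL. The 4 libraries with RANKL lay above the 4 without it, and those with and without PRDX1 overlapped. The difference with RANKL was 0.27 ± 0.09 on the log2 scale without PRDX1 (limma adjusted p = 0.0224) and 0.23 ± 0.09 with PRDX1 (adjusted p = 0.0577), both under 1.5-fold. The differences with PRDX1 were 0.06 ± 0.09 and 0.02 ± 0.09 (adjusted p = 0.655 and 0.858).

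These reads cannot be assigned to Il27 with certainty. The end of its transcript overlapped that of Apobr, on the opposite strand, by 84 bases at chr7:126589009-126589092, which lie in an exon of Apobr and, but for 1 base, in an exon of Il27 in the GENCODE annotation. Reads were counted without regard to strand, and Apobr, which encodes a receptor for apolipoprotein B, had 28.2 to 42.9 FPKM. If the reads of Apobr were spread evenly over its 3593 bases, 70.1 to 149 of them per library would fall on the overlap, whereas Il27 had 67 to 136 reads in all. Apobr also differed with RANKL, by 0.43 without PRDX1 (limma adjusted p = 6.27e-04) and by 0.38 with PRDX1 (adjusted p = 0.00286). Its part in the values of Il27 was not tested.

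Il10, at chr1:131019845-131024970 on the plus strand (NM_010548), encodes an anti-inflammatory cytokine. Its level was 1.22 and 1.33 FPKM with M-CSF alone and 1.92 and 1.88 FPKM with PRDX1 alone. It was 1.02 and 1.56 FPKM with RANKL alone, from 36 and 70 reads, and 2.38 and 2.28 FPKM with PRDX1 + RANKL, from 143 and 124 reads. The 4 libraries with PRDX1 lay above the 4 without it, and the replicates with RANKL alone were the farthest apart. The difference with PRDX1 was 0.55 ± 0.12 with RANKL (limma adjusted p = 0.00417) and 0.35 ± 0.12 without it (adjusted p = 0.0513). Neither reached 1.5-fold on the log2(FPKM + 1) scale, although the ratio of mean FPKM with RANKL was 1.81, and with a pseudocount of 0.1 the log2 difference with RANKL was 0.84 and was called. RANKL itself gave differences of -0.00 ± 0.12 without PRDX1 (adjusted p = 0.993) and 0.20 ± 0.12 with PRDX1 (adjusted p = 0.205).

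Il15, at chr8:82331624-82402586 on the minus strand (NM_001254747), was the second most abundant member in each group. Its level was 10.9 and 9.80 FPKM with M-CSF alone, 11.1 and 10.2 FPKM with PRDX1 alone, 11.5 and 10.1 FPKM with RANKL alone, and 13.9 and 11.8 FPKM with PRDX1 + RANKL. The first 3 groups overlapped, and both libraries with PRDX1 + RANKL lay above the other 6. The largest difference was 0.24 ± 0.10 on the log2 scale, with RANKL in the presence of PRDX1 (limma adjusted p = 0.0694), and the smallest 0.04 ± 0.10, with PRDX1 without RANKL (adjusted p = 0.775). No comparison of Il15 was called.

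Counted over the members tested, PRDX1 without RANKL called 1 of 5, Tnf, against 5.79% of all genes tested. PRDX1 with RANKL called 1 of 5, again Tnf, against 10.2% of the genes. RANKL without PRDX1 called 2 of 5, Tnf and Osm, both lower, against 21.8%. RANKL with PRDX1 called 1 of 5, Osm, against 8.50%. The interaction called 0 of 5 by limma, against 8.85%, and 1 of the 5, Tnf, had an unadjusted p under 0.05, beside 34.9% of all genes. Limma-voom on the reads of the same genes also called 0 of 5 for the interaction. The median log2 fold change of the 5 members was 0.35 with PRDX1 without RANKL and 0.47 with PRDX1 with RANKL, beside -0.04 and -0.06 over all genes tested. For RANKL it was -0.00 without PRDX1 and 0.20 with PRDX1, beside 0.10 and 0.07. The comparisons share control cultures, so these values are given side by side only, and the 5 members are those whose level passed the filter. They include Il27, whose reads cannot be assigned to it with certainty.

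**Figure D3:**
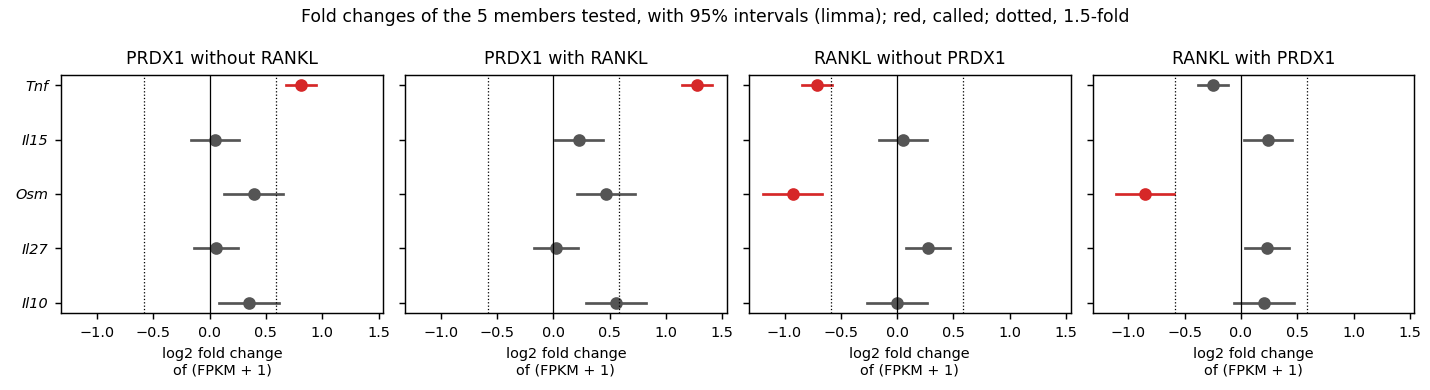
Log2 fold changes of (FPKM + 1) of the 5 members tested, with 95% intervals from limma, in 1 panel for each of the 4 comparisons; red marks a call, and dotted lines mark 1.5-fold. Tnf was at 0.81 and 1.27 in the PRDX1 comparisons, and Osm at -0.93 and -0.85 in the RANKL comparisons, whereas the intervals of Il27 and Il15 lay within 1.5-fold in each panel.

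The order of the levels changed with RANKL below the most abundant pair. Tnf was first and Il15 second in all 4 groups, and they did not overlap within any group. Next came Osm without RANKL and Il27 with RANKL, although the reads of Il27 cannot be assigned to it with certainty. With Il27 left aside, Osm had the next highest mean in each group. With PRDX1 + RANKL, Osm and Il10 followed Il27 and overlapped each other, at means of 2.34 and 2.33 FPKM. With RANKL alone, Osm, Lif and Il10 had means of 1.40, 1.39 and 1.29 FPKM and were not separated by their replicates. Il12b, Il6 and Il23a lay under 0.33 FPKM in every library, and so did Lif in every library but those with RANKL alone, so these were the members near zero.

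Receptors for these cytokines were present for some ligands and nearly absent for others. Of the 15 receptor genes listed, 11 passed the filter. PRDX1 without RANKL raised 2, Il2rg and Tnfrsf1b, and lowered 2, Il12rb2 and Lifr, against 5.79% of all genes called, with a median log2 fold change of -0.06 beside -0.04 over all genes. PRDX1 with RANKL raised 2, Il10ra and Tnfrsf1b, and lowered 0, against 10.2% of all genes called, with a median of 0.24 beside -0.06, and 7 of the 11 had an unadjusted p under 0.05 in limma in either direction, beside 50.2% of all genes. RANKL without PRDX1 raised Il2rg and lowered 4, Lifr, Il10ra, Il12rb1 and Il6st, against 21.8%, with a median of -0.52 beside 0.10. RANKL with PRDX1 raised 2, Il2rg and Il15ra, against 8.50%, with a median of -0.10 beside 0.07. Lifr, Il10ra, Il12rb1, Il6st and Il15ra are named here because the counts are small, after their values were seen.

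Tnfrsf1b, which encodes the second TNF receptor, had nearly the pattern of Tnf. Its level was 29.3 and 30.2 FPKM with M-CSF alone, 48.1 and 50.3 FPKM with PRDX1 alone, 20.4 and 20.4 FPKM with RANKL alone, and 51.3 and 54.2 FPKM with PRDX1 + RANKL. The 4 libraries with PRDX1 were the highest and those with RANKL alone the lowest. PRDX1 raised it by 0.71 ± 0.05 without RANKL (limma adjusted p = 8.98e-06) and by 1.33 ± 0.05 with RANKL (adjusted p = 5.00e-08). The increase was larger with RANKL by 0.62 ± 0.07 (interaction, adjusted p = 2.76e-04).

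Il2rg encodes the common γ chain, through which IL-15 signals. Its level was 33.9 and 33.3 FPKM with M-CSF alone, 65.4 and 61.6 FPKM with PRDX1 alone, 182 and 185 FPKM with RANKL alone, and 226 and 227 FPKM with PRDX1 + RANKL. The groups did not overlap, and RANKL made the larger step. RANKL raised it by 2.42 ± 0.05 without PRDX1 (limma adjusted p = 1.01e-10), and PRDX1 raised it by 0.90 ± 0.05 without RANKL (adjusted p = 6.97e-07). The other signalling chain for IL-15, Il2rb, was at most 0.063 FPKM in any library. The receptors Osmr, Il27ra and Il23r were also low, with at most 0.144, 0.394 and 0.053 FPKM.

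Il12rb2, a chain of the IL-12 receptor, moved the other way. It was at 10.3 FPKM in both libraries with M-CSF alone, 5.47 and 4.91 FPKM with PRDX1 alone, 7.84 and 7.42 FPKM with RANKL alone, and 5.18 and 5.82 FPKM with PRDX1 + RANKL. Every library with PRDX1 lay below every library without it. The gene fell by 0.87 on the log2 scale with PRDX1 without RANKL (limma adjusted p = 3.85e-05), and with RANKL the difference was -0.41 ± 0.08 (adjusted p = 0.00249), under 1.5-fold. Lifr, the receptor chain for LIF, was at 4.06 and 3.86 FPKM with M-CSF alone, 1.83 and 1.78 FPKM with PRDX1 alone, 0.714 and 1.12 FPKM with RANKL alone, and 0.912 and 0.962 FPKM with PRDX1 + RANKL. Both groups with RANKL overlapped and were the lowest. The log2 fold change of Lifr was -1.38 ± 0.11 with RANKL without PRDX1 (limma adjusted p = 3.01e-06).

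Among 12 partner subunits and other cytokines of the IL-6, IL-10 and IL-12 families, 3 passed the filter and 5 had at most 3 reads in every library (Il22, Il31, Il20, Il24 and Ctf1). Ebi3, which encodes the partner of the Il27 product, was by far the most abundant of them. Its level was 23.2 and 28.6 FPKM with M-CSF alone, 34.0 and 30.7 FPKM with PRDX1 alone, 19.99 and 22.0 FPKM with RANKL alone, and 32.0 and 38.4 FPKM with PRDX1 + RANKL. The libraries with PRDX1 all lay above those without it. With RANKL, PRDX1 raised Ebi3 by 0.72 ± 0.11 (limma adjusted p = 4.97e-04), and without RANKL the difference was 0.31 ± 0.11 (adjusted p = 0.0542). On the log2(FPKM + 1) scale limma called 1 of the 3 tested for PRDX1 with RANKL, against 10.2% of all genes, and 0 of the 3 in the other comparisons, against 5.79% for PRDX1 without RANKL, 21.8% for RANKL without PRDX1 and 8.50% for RANKL with PRDX1. In these other comparisons 2, 1 and 0 of the 3 had an unadjusted p under 0.05, beside 39.8%, 64.1% and 49.2% of all genes. With a pseudocount of 0.1 or 0.01, or limma-voom on the reads, Clcf1 was called higher as well with PRDX1, which gave 1 without RANKL and 2 with RANKL. Clcf1 is named after its values were seen.

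Of 16 other ligands of the TNF superfamily, 9 passed the filter and 3, Fasl, Cd40lg and Cd70, were listed at 0 in every library. RANKL without PRDX1 lowered 4, Tnfsf9, Tnfsf12, Tnfsf14 and Tnfsf8, and raised 2, Ltb and Tnfsf4, against 21.8% of all genes called. PRDX1 with RANKL raised 2, Tnfsf12 and Tnfsf9, and lowered Ltb, against 10.2%, and PRDX1 without RANKL raised Tnfsf8 and lowered Tnfsf14, against 5.79%. RANKL with PRDX1 raised Tnfsf4 and lowered Tnfsf8, against 8.50%. Tnfsf14, Tnfsf8 and Tnfsf4 are named after their values were seen. For PRDX1 without RANKL, Tnfsf8 was not called with quantile normalization. For RANKL with PRDX1, Tnfsf4 was not called with a minimum of 1 FPKM. The calls of Tnfsf14 for PRDX1 without RANKL and of Tnfsf4 for RANKL with PRDX1 also ended when single libraries were left out. The median log2 fold change of the 9 was 0.04 and 0.24 with PRDX1 without and with RANKL, and -0.57 and -0.06 with RANKL without and with PRDX1, beside -0.04, -0.06, 0.10 and 0.07 over all genes.

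Tnfsf12 encodes TWEAK, and as for Tnf its top libraries were those with PRDX1 alone and its bottom ones those with RANKL alone. Its levels were 24.0 and 26.3 FPKM with M-CSF alone, 37.6 and 37.2 FPKM with PRDX1 alone, 11.7 and 12.7 FPKM with RANKL alone, and 24.6 and 25.1 FPKM with PRDX1 + RANKL. RANKL lowered it by 0.99 ± 0.06 (log2 fold change -0.99, limma adjusted p = 5.43e-07) and PRDX1 raised it by 0.97 ± 0.06 in the presence of RANKL (adjusted p = 1.72e-06). The libraries with PRDX1 + RANKL lay within the range of those with M-CSF alone.

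Tnfsf9, the ligand of the costimulatory receptor 4-1BB, changed direction between the settings. It was at 7.61 and 7.99 FPKM with M-CSF alone, 4.45 and 5.83 FPKM with PRDX1 alone, 1.79 and 2.15 FPKM with RANKL alone, and 5.34 and 4.44 FPKM with PRDX1 + RANKL. The difference with PRDX1 was -0.53 ± 0.12 without RANKL (limma adjusted p = 0.00917, under 1.5-fold) and 0.98 ± 0.12 with RANKL (adjusted p = 1.30e-04). The difference between both was 1.51 ± 0.17 (interaction, adjusted p = 1.92e-04).

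Ltb, which encodes lymphotoxin β, had the order of Lif by group means rather than that of Tnf. It was at 0.620 and 0.790 FPKM with M-CSF alone, 0.702 and 1.27 FPKM with PRDX1 alone, 4.20 and 3.50 FPKM with RANKL alone, and 1.89 and 1.82 FPKM with PRDX1 + RANKL. RANKL alone raised it by 1.51 ± 0.14 (limma adjusted p = 8.37e-06), and in the presence of RANKL it fell by 0.76 on the log2 scale with PRDX1 (adjusted p = 0.00171). The groups without RANKL overlapped.

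All 13 regulators of TNF and IL-6 messenger RNA or protein that were listed passed the filter. PRDX1 raised 2 without RANKL, Zc3h12a and Timp3, and 2 with RANKL, Rhbdf2 and Timp3, and lowered 0 in each, where 7 and 8 of the 13 had an unadjusted p under 0.05 in either direction by limma, beside 39.8% and 50.2% of all genes. Over all genes, 5.79% and 10.2% were called in these comparisons. With a pseudocount of 0.1 the counts were 2 higher and 1 lower without RANKL, and 3 higher and 1 lower with RANKL. RANKL without PRDX1 raised Zc3h12a and lowered 3, Zfp36l2, Rhbdf2 and Zfp36l1, against 21.8%, and RANKL with PRDX1 lowered Zfp36l1, 1 of 13 against 8.50%. Zfp36l1 and Zfp36l2, which encode RNA-binding proteins that promote decay, are named after their values were seen. The median log2 fold changes were 0.02, 0.25, 0.04 and 0.05 in the same order of comparisons, beside -0.04, -0.06, 0.10 and 0.07 over all genes.

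Zc3h12a encodes regnase-1, an endonuclease that degrades Il6 messenger RNA among others. It was at 3.29 and 4.04 FPKM with M-CSF alone, 8.10 and 7.55 FPKM with PRDX1 alone, 6.57 and 6.90 FPKM with RANKL alone, and 9.49 and 9.15 FPKM with PRDX1 + RANKL. The groups did not overlap, and the untreated libraries were the lowest. PRDX1 without RANKL raised it by 0.92 ± 0.09 (limma adjusted p = 4.74e-05) and RANKL without PRDX1 by 0.73 ± 0.09 (adjusted p = 5.25e-05). Rhbdf2 encodes iRhom2, which brings the TNF sheddase ADAM17 to the cell surface. It was at 18.8 and 19.2 FPKM with M-CSF alone, 22.3 and 23.2 FPKM with PRDX1 alone, 10.7 and 12.3 FPKM with RANKL alone, and 19.7 and 20.1 FPKM with PRDX1 + RANKL, which is the order of Tnf. It fell by 0.68 on the log2 scale with RANKL alone (limma adjusted p = 1.55e-05) and rose by 0.75 ± 0.07 with PRDX1 in the presence of RANKL (adjusted p = 1.92e-05). Timp3, which encodes an inhibitor of ADAM17, was at 0.361 and 0.497 FPKM with M-CSF alone, 1.39 and 1.41 FPKM with PRDX1 alone, 0.580 and 0.508 FPKM with RANKL alone, and 1.49 and 1.98 FPKM with PRDX1 + RANKL. PRDX1 raised it by 0.75 ± 0.12 without RANKL and by 0.82 ± 0.12 with RANKL (limma adjusted p = 0.00108 and 3.42e-04).

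**Figure D4:**
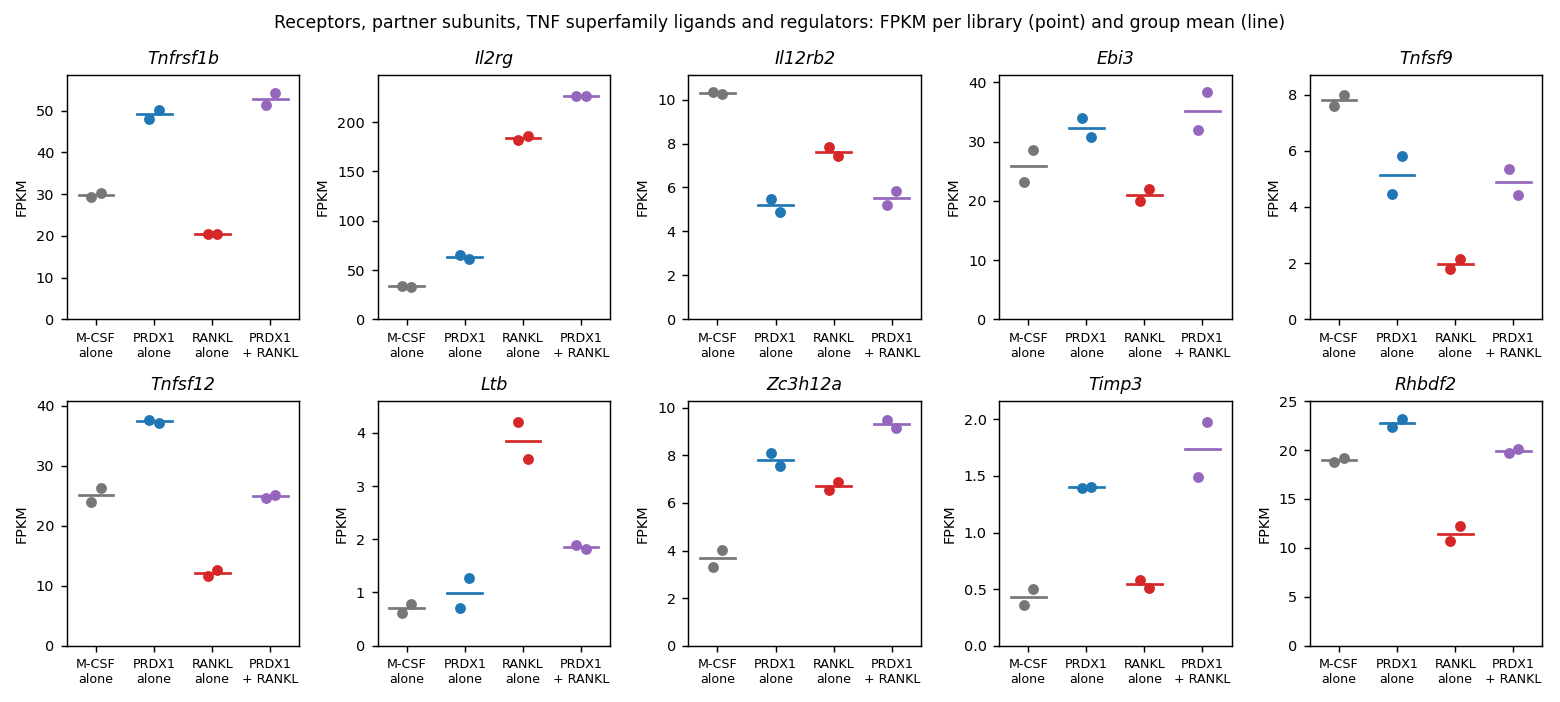
FPKM of 10 genes around the members, with 1 panel per gene, the 4 groups on the horizontal axis, 1 point per library and a line at the mean of the 2 libraries; each vertical axis starts at 0. Tnfrsf1b, Tnfsf12 and Rhbdf2 were lowest with RANKL alone, as Tnf was, Ltb was highest there at 4.20 and 3.50 FPKM, and Il2rg rose from 33.9 and 33.3 FPKM without treatment to 226 and 227 FPKM with PRDX1 + RANKL.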

How the data were processed

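RNA-seq libraries of 8 cultures in 4 groups were used as FPKM. Per the file headers, the authors used HOMER to count reads over RefSeq exons (mm10) on either strand and deposited FPKM with 1 transcript per gene. HISAT2, HOMER and DESeq2 are listed in the submitters' processing notes, and their versions are not given in the sources used here. Reads were paired, and whether both mates were counted is not given in the sources used here. FPKM multiplied by transcript length gave whole reads within 0.2 reads for 100% of the genes checked (8241 to 11027 per library), other genes were rounded, and the same scaling gave library totals of 27284655 to 46171824 reads. Replicates differed beyond the noise of sampling in each group (chi-square per degree of freedom 4.59 to 9.19). The table held 0 columns of unused per-sample values.

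Here log2(FPKM + 1) of 11700 genes was fitted with limma 3.58.1 in R 4.3.3 in 1 model of all groups, with an intensity trend (4 residual degrees of freedom), with Benjamini-Hochberg adjustment over all genes in each comparison. The steps were tested on simulated data. The members and the lists of receptors, partners, ligands, regulators and markers were chosen with earlier results of these data known. Named genes were all members, up to 3 genes per list called in at least 1 comparison with the largest PRDX1 difference, and the 3 genes most correlated with each member called. Intervals and the floor of 3 reads cover counting error only, and if both mates were counted, 3 reads stand for fewer than 3 independent fragments. Alternatives were pseudocounts, filters, scalings, limma-voom on the recovered reads, a replicate block and leaving out each library.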

Additional observations from a re-analysis of the deposited data

Results flagged for a closer look

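Of the 41 members and genes of their pathway lists that were tested, 17 had a limma interaction adjusted p under 0.05, beside 23.1% of all genes tested. Of these, 8 were called at 1.5-fold or more, beside 8.85% of all genes, and 9, Tnf among them, lay under 1.5-fold. Il6ra, Tnfsf13 and Adam17 are the 3 not described further. The differences, on the log2(FPKM + 1) scale and as the effect with RANKL minus that without, were 0.46 for Tnf, 0.62 for Tnfrsf1b, 0.42 for Tnfsf12, 0.50 for Rhbdf2, 0.46 for Il12rb2 and 1.51 for Tnfsf9. For Il2rg the difference was -0.60, for Zc3h12a -0.51 and for Ltb -0.97. For Lif it was -0.97 in the fit with no filter on low values. For 5 genes named after their values were seen, the difference was 0.85 for Lifr, 0.73 for Il10ra, 0.83 for Tnfsf14, 0.82 for Zfp36l1 and 0.45 for Zfp36l2. The negative sign of Il2rg and Zc3h12a stands for a smaller increase with PRDX1 when RANKL was present, and that of Ltb and Lif for a decrease in the presence of RANKL. Of the 5 members tested, Il10, Il27, Il15 and Osm had interaction adjusted p-values of 0.443, 0.870, 0.373 and 0.797.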

How the results depend on the processing

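PRDX1 with RANKL called 1 member as reported. The number became 3 (Il10, Tnf and Osm) with a pseudocount of 0.1, 3 with 0.01 and 3 with limma-voom on the recovered reads, and 2 (Tnf and Lif) with no filter, where the interaction also called 1, Lif. Leaving out each library in turn gave 1 to 2 members there. It was 2 without RANKL alone replicate 2 (Il10 and Tnf), where the log2 difference of Il10 was 0.72, and 2 without PRDX1 + RANKL replicate 1 (Tnf and Osm), where that of Osm was 0.61. In an alternative added after seeing the data, limma-voom on 12880 genes with at least 10 reads per library on average, the members called were 2, 4, 4, 2 and 1 for PRDX1 without RANKL, PRDX1 with RANKL, RANKL without PRDX1, RANKL with PRDX1 and the interaction. The genes called were 1183 in place of 678, 1878 in place of 1193 and 1586 in place of 995 for PRDX1 without RANKL, PRDX1 with RANKL and RANKL with PRDX1. It tested Lif and Il12b as well, which passed its filter through the groups in which they were high, so the calls it adds for them are no support. The cause of these changes was not tested, apart from the genes and pseudocount that each setting changes by its construction. For the pathway lists, the genes called moved by over 1.5 times with a pseudocount of 0.1 from 0 to 1 partner genes for PRDX1 without RANKL, from 1 to 2 partner genes and from 2 to 4 regulators for PRDX1 with RANKL, from 2 to 4 TNF superfamily ligands for RANKL with PRDX1 and from 1 to 2 regulators for the interaction (also 2 without M-CSF alone replicate 2 or RANKL alone replicate 2), and with 0.01 also from 3 to 5 ligands for PRDX1 with RANKL. The ligands called for PRDX1 without RANKL went from 2 to 4 with limma-voom and to 1 with quantile normalization or without M-CSF alone replicate 1. Those for RANKL with PRDX1 went to 1 with a minimum of 1 FPKM and without PRDX1 alone replicate 1 or PRDX1 + RANKL replicate 1, and the receptors for RANKL with PRDX1 to 1 without PRDX1 alone replicate 2. No value of a member reversed its direction among those called. Tnf stayed called where reported as called in each setting that kept both libraries of the groups compared. When libraries were left out, its log2 differences were 0.75 to 0.87 and 1.24 to 1.31 for PRDX1 and -0.75 to -0.67 for RANKL. Each fit without a library leaves 1 culture in a group and takes its spread from the other groups, so the calls in these fits are descriptions only.

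Deviations of same-numbered replicates correlated by 0.00847 to 0.0965 over genes, so no strong effect shared by replicate number was seen. These correlations cannot tell whether cultures of the same number shared an animal or a day. The file header lists read directories with other numbers than the labels, and with 2 cultures in a group another numbering only turns the sign of a correlation, so none would pass 0.0965 in size. With the replicate block, the members called were 1, 1, 2, 1 and 0 in the same order of comparisons, and the genes called 676, 1192, 2551, 994 and 1042.

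Lif, Il12b, Il6 and Il23a are limited by depth, with at most 182, 37, 6 and 4 reads in a library. With 2 reads counted as 1 pair, the intervals of the read ratios of Il6 and Il23a included 1 in each comparison, and so did that of Lif for PRDX1 without RANKL.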
